A study of Mus musculus with 4 samples.

Results

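The mouse acute myeloid leukaemia cell lines B117P and B140P, both sensitive to cytarabine, were compared gene by gene. The genes were those with a mean FPKM (the number of sequenced fragments scaled to transcript length and library size) of 1 or more over these 2 libraries, with small RNA genes left out. That rule kept 9990 of the 21889 genes listed, and it used no difference between the lines. Each gene's difference is the log2 of FPKM + 1 in B140P over FPKM + 1 in B117P, so a positive value means a higher level in B140P. A gene is called higher or lower when that ratio is at least 2-fold. There was 1 library per line, so every difference is given as a size, with no test and no replicate error.

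Both lines come from BXH-2 mice and were labelled as parental and sensitive, and 50% inhibition by Ara-C (cytarabine) was noted near 150 ng/ml in B117P and near 110 ng/ml in B140P. B117H and B140H are the highly resistant lines that descend from them, with IC50 values of about 160 and 60 µg/ml, and are used below only as further libraries of each lineage. The growth and treatment notes are worded alike for all 4 lines and give passage in ASM medium without the drug and exposure to rising drug doses. They name no genotype, mouse age or sex, and do not say whether a line is a single clone. A line stands for 1 leukaemia, so a difference between the lines and a difference between the mice they came from cannot be told apart.

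BXH-2 is a recombinant inbred strain whose mice carry a replicating murine leukaemia virus and die of myeloid leukaemia. The virus inserts near different host genes in each tumour, and leukaemias of this strain can differ in the stage of blood formation they resemble. Myeloid progenitors make the azurophil granule proteins under the control of factors such as PU.1 and C/EBPα, monocytes and neutrophils add later receptor and granule genes, and B cell progenitors instead use EBF1, the recombinase RAG and the surrogate light chain. Cytarabine is a deoxycytidine analogue that enters through nucleoside transporters and must be phosphorylated by deoxycytidine kinase before it blocks DNA synthesis.

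Of the genes used to check the labelled cell type, Ptprc, the pan-leukocyte phosphatase CD45, was at 74.5 FPKM in B117P and 53.6 in B140P. Sfpi1, which encodes PU.1, was at 111 FPKM in B117P and 76.6 in B140P. Cebpa, Csf1r, Itgam and Mpo were present in both lines but 2-fold or more lower in B140P, and Kit was listed at 0 in B140P. In B140P, Csf1r was at 3.73 FPKM and Itgam at 1.66 FPKM. Of markers of other cells, the collagen gene Col1a1 was at 0.0476 FPKM in B117P and 0.0110 in B140P and the T cell receptor gene Cd3e was listed at 0 in both lines. Not all such markers were near 0. Cd28, a T cell co-stimulatory receptor, was at 38.96 FPKM in B117P and 14.97 in B140P. The stromal genes Fn1 and Pdgfrb were at 1.85 and 1.55 FPKM in B117P and 0.00615 and 0.00954 FPKM in B140P.

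The files hold no read counts, so the depth was worked out from the steps between low values. It came to about 22080000 fragments for B117P, 19220000 for B140P, 19660000 for B117H and 24520000 for B140H. Of the low values, between 72.7% and 82.0% lay within 0.15 of a whole fragment, but the unit came from these same values, so that share is no independent check. A transcript of 2 kb covered by 3 fragments would then be at 0.0679 FPKM in B117P and 0.0780 FPKM in B140P, and lower values cannot be told from absence. Small RNA genes, which were left out, took 98.1% of the FPKM total of B117P and 17.4% of that of B140P, while the totals of the other genes were 468189 and 479164. The listed spans of 6 genes differed between the lineages and of 0 within a lineage, so separate processing of the lineages and a difference between the lines cannot be told apart for small shifts. Of the compared genes, 1413 overlap another listed gene and their values are uncertain. This is said beside each one named.

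Between the parental lines 575 genes (5.76%) were higher in B140P and 1079 (10.8%) were lower, 1654 in all (16.6%). The count of each gene list below is to be read beside these shares. The median log2 ratio was -0.0015, the middle 50% of genes lay between -0.42 and 0.34 and the middle 90% between -1.82 and 1.09. The longer tail was on the side of B117P. Across the compared genes, which are not independent replicates, the log2(FPKM + 1) values of the parental lines had a Pearson correlation of 0.854, against 0.965 for B117P with its descendant B117H and 0.976 for B140P with B140H. By the same 2-fold rule B117H differed from B117P in 413 genes (4.13%) and B140H from B140P in 338 (3.38%), fewer than the parents differed from each other. The filter used the parental libraries alone, so it kept genes high in only 1 parent. It left out genes that were high only in a resistant line, such as Penk at 1.46 FPKM in B117P and 14.9 in B117H. These counts and correlations are therefore not like for like. An exact 0 was listed for 34 compared genes in B117P and for 155 in B140P. A listed 0 can be a failed estimate, since genes used by most cells such as Ldhb, a lactate dehydrogenase subunit, and Hmgcs1, of sterol synthesis, were listed at 0 in all 4 libraries. No ratio is printed for a gene listed at 0 in B117P or B140P, and a 0 is not read as absence. All 34 are nevertheless counted among the 575 higher genes and all 155 among the 1079 lower ones. The filter on the mean and the 2-fold rule fix those calls in advance, and the list counts and medians below include them. With these genes left out 541 genes were higher and 924 lower.

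**Figure D1:**
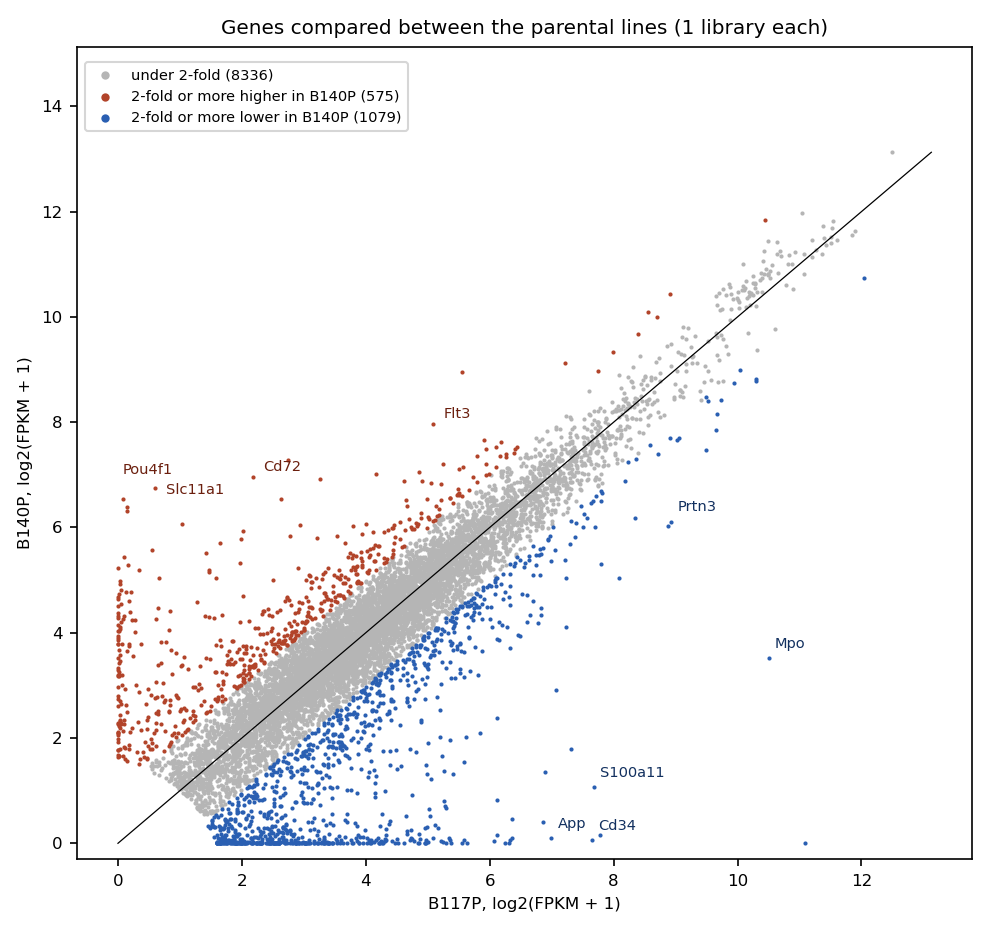
Each point is 1 of the 9990 compared genes, with log2(FPKM + 1) in B117P on the x axis and in B140P on the y axis. The 575 genes higher in B140P lie above the line of equal values and the 1079 lower genes below it, and the lower genes include more of those that lie along the axis, near 0 in one line. The point at the far right is the unnamed clone LOC100302567, which overlaps Rps16.

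The 15 named genes with the largest ratios in favour of B140P were of many kinds. Pou4f1, a POU homeodomain factor of sensory neurons, was at 0.0592 FPKM in B117P, 91.8 in B140P, 0.0399 in B117H and 48.4 in B140H. Dmrtb1, a DM-domain transcription factor of germ cells, was at 0.104 FPKM in B117P and 83.1 in B140P, and Htra3, a secreted serine protease, at 0.104 FPKM in B117P and 78.9 in B140P. Slc11a1, the phagosomal metal transporter NRAMP1, was at 0.520 FPKM in B117P, 107 in B140P, 0.448 in B117H and 158 in B140H. All 4 of these genes separated the B140 from the B117 lineage in every library. Tspan12, a tetraspanin, was at 36.7 FPKM in B140P but listed at 0 in B117P. Rbpms2, an RNA-binding protein, Nrxn2, a neurexin, Popdc3, a popeye-domain membrane protein, and Zfp422, a zinc finger protein, had log2 ratios of 5.35, 4.95, 4.90 and 4.84. Rassf4, a Ras-association protein, and Rangrf, a Ran-binding protein, reached 5.02 and 4.72 on the log2 scale, although both share their span with a second gene. Cd72, Igll1, Dok2 and Spint2 complete these 15 and are described with their groups.

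The named genes with the largest ratios in favour of B117P were mostly genes of myeloid progenitors and their granules. Mpo, the myeloperoxidase of azurophil granules, was at 1450.2 FPKM in B117P, 10.4 in B140P, 473 in B117H and 0.913 in B140H. Ms4a3, made by progenitors of granulocytes and monocytes, was at 218 FPKM in B117P, 0.115 in B140P, 15.3 in B117H and 0 in B140H. Cd34, the sialomucin of blood progenitors, was at 199.8 FPKM in B117P and 0.0432 in B140P, although it overlaps another listed gene. Both B140 libraries lay below both B117 libraries for each of these 3 genes. App, the amyloid precursor protein, was at 127 FPKM in B117P and 0.0672 in B140P, and Emilin2, an extracellular matrix glycoprotein, at 68.2 FPKM in B117P and 0.120 in B140P. S100a11, Hk3, which overlaps Unc5a, Lgals3, Anxa3 and Elane had log2 ratios between -6.62 and -5.89. Gpc1, a glypican, Nkg7, a granule membrane protein, Csf2ra, the α chain of the GM-CSF receptor, and H1f0, a linker histone, were at 78.6, 74.8, 48.9 and 46.2 FPKM in B117P and listed at 0 in B140P. In bulk RNA, fewer cells of a type and less RNA per cell cannot be told apart.

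Azurophil granule genes were lower in B140P as a group. Of 11 listed genes 10 passed the filter on low values, and 9 of these were lower, 0 higher and 1 not past 2-fold, with a median log2 ratio of -2.66 beside -0.0015 over all genes compared. Elane, neutrophil elastase, was at 81.1 FPKM in B117P, 0.385 in B140P, 14.8 in B117H and 0.154 in B140H. Prtn3, proteinase 3, and Ctsg, cathepsin G, remained abundant in B140P at 68.1 and 337 FPKM, against 488 and 735 FPKM in B117P. Lyz2, the lysozyme of myeloid cells, was at 68.7 FPKM in B117P and 0.765 in B140P, and its near-identical copy Lyz1 at 4.37 FPKM in B117P and 0.446 in B140P, so their reads can be shared. The difference was therefore uneven within the list, from -7.62 for Ms4a3 to -1.12 for Ctsg. Srgn, the proteoglycan that packs granule proteins, was at 220.0 FPKM in B117P and 307 in B140P and was not past 2-fold.

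The promoters of Mpo and Elane are shown because both are azurophil granule genes among the largest differences and both hold the letters AGGAAG, whose GGAA core is the one ETS factors such as PU.1 bind. The 250 bases before each start are given 5′ to 3′ from RefSeq on GRCm38.p6, with matches on either strand in capitals. Mpo lies at chr11:87793534-87793783 on the plus strand with 3 matches, and Elane at chr10:79886062-79886311 on the plus strand with 1 match.
Mpo: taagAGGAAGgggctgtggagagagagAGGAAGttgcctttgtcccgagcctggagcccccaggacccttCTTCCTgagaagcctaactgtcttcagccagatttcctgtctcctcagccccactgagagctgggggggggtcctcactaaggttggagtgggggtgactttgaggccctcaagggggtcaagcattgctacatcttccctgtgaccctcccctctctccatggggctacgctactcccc
Elane: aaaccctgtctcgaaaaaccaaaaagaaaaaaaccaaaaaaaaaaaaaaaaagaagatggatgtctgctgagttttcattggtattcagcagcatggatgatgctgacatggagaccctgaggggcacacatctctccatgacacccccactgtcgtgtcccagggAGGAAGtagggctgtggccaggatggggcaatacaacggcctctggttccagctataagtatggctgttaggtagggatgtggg
Counted over 300 bases, from 250 before to 50 after the start, AGGAAG on either strand was in 8 of the 9 azurophil granule genes that had a promoter in the table, and in 35.4% of all 32851 promoters. A gene counted if any of its promoters held the letters, while the percentage is over single promoters, so the units differ. AGGAAG was also in 18 of 28 monocyte genes, 8 of 15 B lymphoid genes, 16 of 35 interferon-stimulated genes and 7 of 38 genes of the amino acid response. A match is a description of letters and does not show binding.

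Late neutrophil genes were mostly low in both lines. Of 36 listed genes of specific granules and late neutrophils 14 passed the filter, of which 9 were lower and 5 not past 2-fold, with a median of -1.60. Without the filter the median was -0.0805. Csf3r, the G-CSF receptor, was at 6.19 FPKM in B117P and 0.124 in B140P. Cxcr2, the neutrophil chemokine receptor, was at 28.8 FPKM in B117P, 4.08 in B140P, 34.4 in B117H and 1.44 in B140H. Mmp8, the neutrophil collagenase, and Hp, haptoglobin, were at 21.6 and 40.01 FPKM in B117P and 1.65 and 2.91 FPKM in B140P. Unlike Cxcr2, these last genes did not keep that order between the resistant lines, where Hp was at 7.64 FPKM in B117H and 66.6 FPKM in B140H. Ltf, lactoferrin, was at 0.532 FPKM in B117P and 0.444 in B140P and did not pass the filter.

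Monocyte and macrophage genes had 20 lower, 0 higher and 14 not past 2-fold among 34 that passed the filter of 50 listed, with a median of -1.97. Without the filter the median was -0.37. Lgals3, galectin-3, was at 79.3 FPKM in B117P and 0.0405 in B140P. Ccr2, the receptor by which inflammatory monocytes leave the marrow, was at 118 FPKM in B117P, 1.57 in B140P, 119.9 in B117H and 2.44 in B140H. Cd14, the co-receptor for lipopolysaccharide, was at 37.8 FPKM in B117P and 0.628 in B140P. These 3 genes were at 1.57 FPKM or lower in B140P, while Csf1r, the receptor for macrophage colony-stimulating factor, stayed higher there, at 22.5 FPKM in B117P, 3.73 in B140P, 12.8 in B117H and 5.31 in B140H. Ms4a6c, a membrane gene of monocytes, was at 38.1 FPKM in B117P and 0.586 in B140P, and Igsf6 at 15.2 FPKM in B117P and 0.0756 in B140P, although Igsf6 overlaps Mettl9. Between the resistant lines the median of this list was -0.10, beside 0.147 over all genes. There 11 genes were higher and 12 lower, where 9.28% and 8.9% of all genes were, so the list was divided in direction. Of its genes 11 were lower in both pairs and 0 were higher in both.

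Genes of stem and progenitor cells divided in direction. Of 32 listed 17 passed the filter, with 2 higher, 6 lower and 9 not past 2-fold, and a median of -0.69. Kit, the receptor for stem cell factor, was listed at 0 in both B140 libraries, against 29.9 FPKM in B117P and 34.2 in B117H. Flt3, the receptor tyrosine kinase of multipotent and lymphoid-primed progenitors, went the other way, at 32.9 FPKM in B117P, 249 in B140P, 47.99 in B117H and 347 in B140H. Both B140 libraries lay above both B117 libraries for Flt3 and below them for Kit and Cd34. Of these, Cd34 is uncertain through its overlap, and the order of Kit rests on listed 0 values, which can be failed estimates. The 24 nearest compared genes of Flt3 had a median log2 ratio of 1.43, beside 2.89 for Flt3 itself.

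Among homeobox genes of leukaemia, 3 were higher, 0 lower and 9 not past 2-fold of the 12 that passed the filter of 40 listed, with a median of 0.52. Meis1, the HOX cofactor that is a frequent insertion site in BXH-2 leukaemia, was listed at 0 in B117P and was at 14.4 FPKM in B140P, 0.0303 in B117H and 18.8 in B140H. Hoxa7, another gene hit by insertion in this strain, was at 13.6 FPKM in B117P, 29.7 in B140P, 16.1 in B117H and 34.8 in B140H. Pbx3, a further HOX partner, was at 1.69 FPKM in B117P and 4.55 in B140P. Hoxa9 was at 2.43 FPKM in B117P and 4.97 in B140P, a log2 ratio of 0.80 that was not past 2-fold. All 4 of these genes had the higher value in B140P.

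Transcription factors of blood cells were more often lower in B140P. Of 61 listed 46 passed the filter, with 3 higher, 16 lower and 27 not past 2-fold, and a median of -0.40. Erg, an ETS factor of stem cells, was listed at 0 in both B140 libraries, against 27.5 FPKM in B117P and 38.6 in B117H. Gata2, a factor of stem cells and mast cells, was at 4.94 FPKM in B117P and 0 in B140P, and Nfe2, a factor of megakaryocytes and red cells, at 31.1 FPKM in B117P and 2.76 in B140P. Cebpa, the factor of granulocyte commitment, was lower but still read in B140P, at 43.3 FPKM in B117P, 12.5 in B140P, 36.01 in B117H and 17.7 in B140H. Gfi1, a repressor needed for granulocytes, was at 4.56 FPKM in B117P and 0.387 in B140P. Zfpm1, which encodes the GATA partner FOG1, was higher in B140P, at 3.35 FPKM in B117P, 17.6 in B140P, 5.87 in B117H and 25.9 in B140H. Sfpi1, Myb and Irf8 were not past 2-fold, with log2 ratios of -0.53, -0.55 and -0.42. B140P thus retained Sfpi1, Myb and Irf8, while Erg and Gata2 were listed at 0 there.

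Genes of B cell progenitors that passed the filter were mostly higher in B140P and formed the list with the highest median. Of 30 listed 16 passed the filter, with 13 higher, 1 lower and 2 not past 2-fold, and a median of 2.51. The filter used the mean of both parental lines, so genes near 0 in B117P passed only through their level in B140P. With no filter the median was 0.70. Ebf1, the factor that commits cells to the B lineage, was listed at 0 in B117P and was at 24.7 FPKM in B140P, 0.0230 in B117H and 23.7 in B140H. Igll1, the λ5 chain of the surrogate light chain, was at 0.118 FPKM in B117P, 38.03 in B140P, 1.11 in B117H and 9.59 in B140H. Cd79b and Cd79a, the signalling chains of the B cell receptor, were at 44.5 and 6.63 FPKM in B140P against 1.67 and 0.400 FPKM in B117P. Rag1 and Rag2, the recombinase subunits, were at 9.73 and 13.2 FPKM in B140P against 0.00665 and 0.626 FPKM in B117P, and Rag2 overlaps another listed gene. Cd72, a B cell surface receptor, was at 3.51 FPKM in B117P, 124 in B140P, 2.31 in B117H and 149 in B140H, but overlaps Tesk1. In each of these genes both B140 libraries lay above both B117 libraries. Il7r, the interleukin 7 receptor, was at 0.917 FPKM in B117P and 11.2 in B140P, and Cd37, a tetraspanin of B cells, at 46.4 FPKM in B117P and 140.2 in B140P.

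Other B lineage genes were low in B140P. Pax5, the factor that maintains B cell identity, was at 0.704 FPKM in B140P but listed at 0 in B117P, below the filter. Cd22, an inhibitory receptor of B cells, was at 0.0452 FPKM in B117P and 1.69 in B140P, below the filter too. Foxo1, a factor that drives recombinase expression, was lower in B140P, at 2.71 FPKM in B117P, 0.344 in B140P, 5.54 in B117H and 0.00721 in B140H. The 16 compared genes summed to 141 FPKM in B117P, 653 in B140P, 399 in B117H and 525 in B140H. Their part in the other differences between the lines was not tested.

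B117P was not free of lymphoid transcripts. Vpreb1, the other surrogate light chain gene, was at 8.32 FPKM in B117P, 54.8 in B140P, 81.3 in B117H and 14.1 in B140H, and its near-identical copy Vpreb2 can share its reads. Dntt, the terminal transferase that adds bases during recombination, was at 44.2 FPKM in B117P, 137 in B140P, 222 in B117H and 19.2 in B140H. Both were higher in B140P than in B117P and lower in B140H than in B117H, so the order of the lineages for these 2 genes was opposite in the 2 pairs.

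The promoters of Vpreb1 and Igll1 are shown as the neighbouring surrogate light chain genes, and both hold CAGGTG, the E-box that E2A proteins bind. The 250 bases before each start are from RefSeq on GRCm38.p6, 5′ to 3′, with matches on either strand in capitals. Vpreb1 lies at chr16:16869256-16869505 and Igll1 at chr16:16863986-16864235, both on the minus strand, with 1 match each.
Vpreb1: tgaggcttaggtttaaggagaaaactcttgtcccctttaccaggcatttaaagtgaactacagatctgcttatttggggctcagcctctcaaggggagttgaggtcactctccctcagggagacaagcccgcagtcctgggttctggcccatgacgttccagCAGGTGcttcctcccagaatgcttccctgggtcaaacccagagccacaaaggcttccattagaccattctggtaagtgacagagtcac
Igll1: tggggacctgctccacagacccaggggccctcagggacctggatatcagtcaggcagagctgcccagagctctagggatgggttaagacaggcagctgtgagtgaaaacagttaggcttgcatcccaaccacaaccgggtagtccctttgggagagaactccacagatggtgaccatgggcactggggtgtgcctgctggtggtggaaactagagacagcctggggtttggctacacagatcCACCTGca
CAGGTG on either strand was in 6 of the 15 B lymphoid genes that had a promoter in the table, counted over 300 bases, and in 20.2% of all 32851 promoters. The first count is of genes with the letters in any promoter and the percentage is of single promoters, so the units differ. CAGGTG was in 1 of 9 azurophil granule genes, 3 of 28 monocyte genes and 6 of 35 interferon-stimulated genes.

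**Figure D2:**
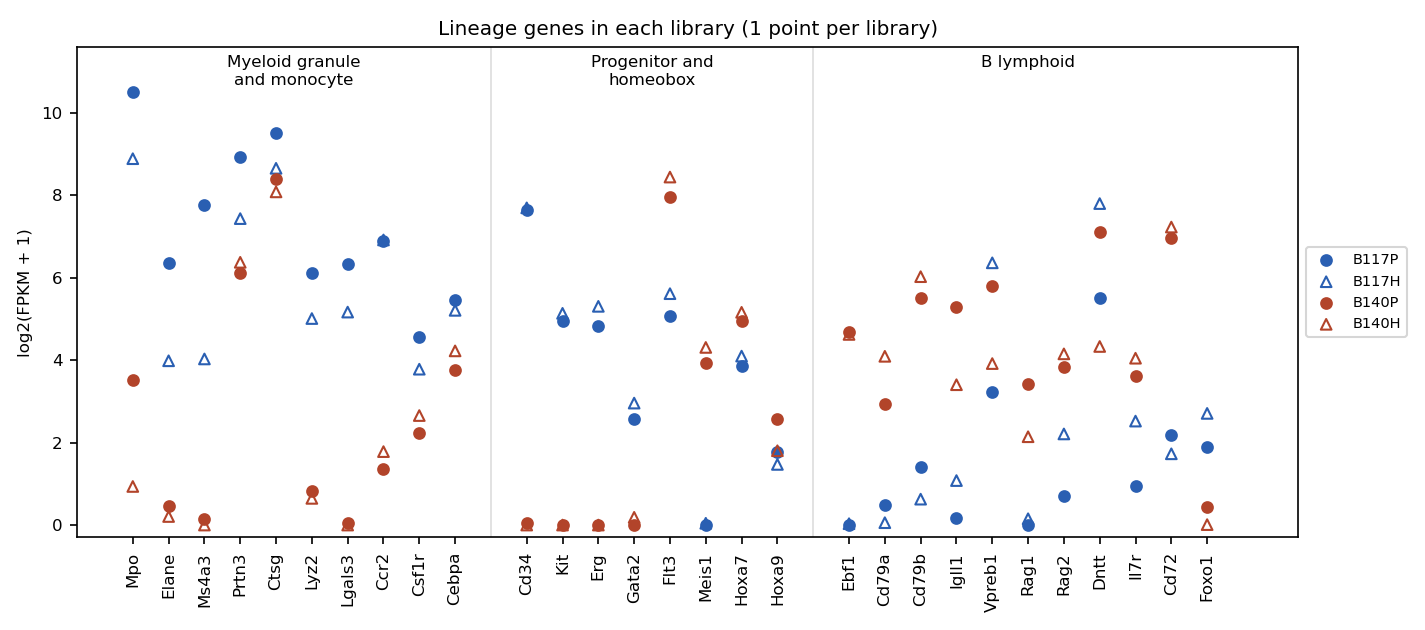
Each column is 1 gene and each point 1 library, with log2(FPKM + 1) on the y axis, circles for parental and triangles for resistant lines, blue for B117 and red for B140. The granule and monocyte genes on the left are higher in the blue libraries, the progenitor genes in the middle are divided, and most B lymphoid genes on the right are higher in the red ones, with Vpreb1 and Dntt crossing over between the pairs and Foxo1 higher in the blue ones.

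Markers of other blood and tissue cells gave a mixed account. Among 21 dendritic cell genes 7 passed the filter, with 1 higher, 3 lower and a median of 0.15. Siglech, a lectin of plasmacytoid dendritic cells, was at 0.537 FPKM in B117P, 18.1 in B140P, 0.795 in B117H and 11.2 in B140H. Itgax, the CD11c integrin of conventional dendritic cells, was at 10.6 FPKM in B117P, 0.0259 in B140P, 75.3 in B117H and 0.0101 in B140H. These 2 dendritic cell genes thus lay on opposite sides, in the resistant lines as well.

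Among 42 T and NK cell genes 8 passed, with 1 higher, 5 lower and a median of -1.11, and these summed to 108 FPKM in B117P and 36.5 in B140P. Their part in the other differences was not tested. Fyb, an adaptor of T cells and myeloid cells, was at 46.8 FPKM in B117P and 1.90 in B140P, and Zap70, the T cell receptor kinase, at 0.445 FPKM in B117P and 2.93 in B140P. The defining T cell genes Cd3e and Cd3g were listed at 0 in both lines and Cd3d was at 0.0725 FPKM in B117P and 0.0421 in B140P.

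Among 47 erythroid and haem genes 25 passed, with 2 higher, 6 lower and a median of -0.37. Fth1, the ferritin heavy chain, was at 1399 FPKM in B117P, 3665 in B140P, 1414 in B117H and 4757 in B140H, higher in both B140 libraries. Aqp9, a channel for water and glycerol, was at 5.62 FPKM in B117P and listed at 0 in B140P. Alas2, the haem synthesis enzyme of red cell precursors, was at 0.675 FPKM in B117P and 0.308 in B140P.

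Of 30 megakaryocyte and platelet genes 9 passed, with 3 higher, 4 lower and a median of -0.44. Ptgs1, cyclooxygenase 1, was at 0.572 FPKM in B117P, 21.2 in B140P, 0.125 in B117H and 27.2 in B140H, and Gp9, a subunit of the platelet receptor for von Willebrand factor, at 1.53 FPKM in B117P and 6.71 in B140P. Cd9, a tetraspanin, went the other way, at 30.5 FPKM in B117P and 0.0476 in B140P. Pf4, platelet factor 4, was at 0.190 FPKM in B117P and 0.111 in B140P. Of 31 mast cell, basophil and eosinophil genes 2 passed, with a median of -1.05. Siglec5 was at 1.91 FPKM in B117P and 0.0871 in B140P, and Mcpt8, a basophil protease, at 25.5 FPKM in B117P and 15.5 in B140P. Of 24 stromal, endothelial and epithelial genes only Sparc, a matrix protein, passed, at 0.240 FPKM in B117P and 2.33 in B140P.

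Most receptors for myeloid growth factors and cytokines were not past 2-fold, and those that were lay more often lower in B140P. Of 59 listed 40 passed, with 4 higher, 15 lower and 21 not past 2-fold, beside 5.76% higher and 10.8% lower of all genes, and a median of -0.61. The α chain of the GM-CSF receptor, Csf2ra, was at 19.1 FPKM in B117H and 0.0461 FPKM in B140H, the same order as in the parents. Its β chain Csf2rb was at 11.1 FPKM in B117P and 4.75 in B140P, and Il3ra, the interleukin 3 receptor α chain, at 26.1 FPKM in B117P and 15.2 in B140P, a ratio not past 2-fold. Il18r1, the interleukin 18 receptor, was at 16.1 FPKM in B117P, 0.0500 in B140P, 87.7 in B117H and 0.0195 in B140H. Il1r1, the interleukin 1 receptor, was at 6.32 FPKM in B117P and listed at 0 in B140P. The 4 genes higher in B140P were Flt3, Il7r, Il21r and Socs2, a feedback inhibitor of cytokine signalling at 0.134 FPKM in B117P, 12.4 in B140P, 0 in B117H and 10.6 in B140H.

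Chemokine receptors had 7 genes lower and 0 higher of 10 that passed, out of 36 listed, with a median of -1.86. Without the filter the median was -0.0944. Besides Ccr2 and Cxcr2, Cx3cr1, the fractalkine receptor, was at 29.9 FPKM in B117P and 5.67 in B140P, and Cxcr4, the marrow homing receptor, at 106 FPKM in B117P and 43.7 in B140P. Cytokines and NF-kB response genes had 1 higher and 11 lower of 34 that passed of 65 listed, with a median of -0.71. Tnfaip2 was at 24.3 FPKM in B117P and 0.132 in B140P, Ccl4, an inflammatory chemokine, at 56.6 FPKM in B117P and 3.26 in B140P, and Spp1, osteopontin, at 149 FPKM in B117P and 16.3 in B140P. Icam1, an adhesion molecule induced by NF-kB, was the 1 higher gene, at 4.60 FPKM in B117P and 19.1 in B140P. Between the resistant lines the median of this list was -0.017, and Ccl4 was at 3.46 FPKM in B117H and 4.95 FPKM in B140H.

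Interferon-stimulated genes had 22 lower, 0 higher and 24 not past 2-fold among 46 that passed of 65 listed, with a median of -0.92. Gbp3, a guanylate-binding protein, was at 37.1 FPKM in B117P, 0.0201 in B140P, 24.6 in B117H and 0.0157 in B140H. Lgals3bp, a secreted glycoprotein, was at 24.4 FPKM in B117P and 0.173 in B140P, and Trim30a at 6.63 FPKM in B117P and 0.208 in B140P. Oas1a, an oligoadenylate synthetase, was at 8.65 FPKM in B117P and listed at 0 in B140P. Isg15, the ubiquitin-like modifier, was at 4.59 FPKM in B117P and 0.243 in B140P, and Irf7 at 3.32 FPKM in B117P and 0.742 in B140P. The list kept its direction between the resistant lines, with a median of -0.62, 16 genes lower and 2 higher.

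Other innate and antigen presentation genes differed less. Toll-like receptors and innate sensors had 10 lower and 0 higher of 29 that passed of 45 listed, with a median of -0.32, led after Cd14 by Tlr7, the sensor of single-stranded RNA, at 5.34 FPKM in B117P and 0.0836 in B140P, and Clec7a, the glucan receptor Dectin-1, at 5.06 FPKM in B117P and 0.0235 in B140P. MHC class I presentation genes had 2 lower of 27 that passed of 31 listed, beside 10.8% of all genes, with a median of -0.21. These were Calr, the chaperone calreticulin, at 1260.0 FPKM in B117P and 449 in B140P, and H2-M3 at 13.5 FPKM in B117P and 5.81 in B140P. MHC class II genes had 3 lower of 11 that passed of 18 listed, and their median of 0.14 was on the other side of 0. H2-DMb1, a chain of the peptide-loading molecule, was at 3.77 FPKM in B117P and 0.219 in B140P, and Cd74, the invariant chain, at 2.95 FPKM in B117P and 0.879 in B140P.

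Adhesion genes moved both ways, with 7 higher, 12 lower and 20 not past 2-fold of 39 that passed of 63 listed and a median of -0.49. Tspan32, a tetraspanin of blood cells, was at 2.14 FPKM in B117P, 51.4 in B140P, 1.18 in B117H and 57.5 in B140H, and Cd81, a tetraspanin of the B cell co-receptor, at 12.9 FPKM in B117P and 64.5 in B140P, although Cd81 overlaps another listed gene. S100 proteins and annexins had 2 higher and 8 lower of 17 that passed of 25 listed, with a median of -0.73. S100a11 was at 205 FPKM in B117P, 1.09 in B140P, 183 in B117H and 2.64 in B140H, while S100a6 was higher in B140P, at 45.7 FPKM in B117P, 493 in B140P, 86.3 in B117H and 371 in B140H. Anxa3 was at 66.4 FPKM in B117P and 0.0344 in B140P and Anxa5, the phosphatidylserine binder, at 103 FPKM in B117P and 23.3 in B140P.

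Proteases and their inhibitors had 3 higher and 11 lower of 28 that passed of 61 listed, with a median of -0.74. The lysosomal cathepsins Ctsh and Ctsl were at 32.9 and 25.9 FPKM in B117P and 0.0677 and 0.877 FPKM in B140P. Spint2, an inhibitor of membrane serine proteases, was at 0.0375 FPKM in B117P, 27.2 in B140P, 0.168 in B117H and 0.173 in B140H, so B140P stood alone among the 4 libraries. Serpinb8, an intracellular serpin, was listed at 0 in B117P and was at 10.4 FPKM in B140P, 0.133 in B117H and 0.146 in B140H, the same pattern as Spint2.

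Loss of the neurofibromin gene by viral insertion is a known event in BXH-2 leukaemia, and the Evi2 genes lie within an intron of Nf1. Evi2a was at 134 FPKM in B117P, 6.52 in B140P, 124.9 in B117H and 5.23 in B140H. Nf1, the GTPase-activating protein for Ras, was at 14.2 FPKM in B117P, 3.86 in B140P, 13.9 in B117H and 4.30 in B140H. Evi2b was at 49.9 FPKM in B117P and 21.7 in B140P. The files give Nf1, Evi2a and Evi2b 1 listed span, chr11:79153394-79395111 on mm9, so their reads may be divided between them and the values are uncertain. All 3 were lower in B140P, in both pairs of lines for Evi2a and Nf1, while their 24 nearest compared genes had a median log2 ratio of 0.20.

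Of 61 Ras pathway genes 50 passed the filter, with 2 higher, 8 lower and 40 not past 2-fold, where 5.76% and 10.8% of all genes were higher and lower, and a median of -0.081. Dok2 and Dok3, adaptors that dampen Ras signalling, were the 2 higher genes, Dok2 at 1.04 FPKM in B117P, 66.2 in B140P, 1.84 in B117H and 38.4 in B140H and Dok3 at 5.83 FPKM in B117P, 56.3 in B140P, 3.74 in B117H and 73.6 in B140H. Spred2, another inhibitor of the pathway, was lower, at 30.7 FPKM in B117P, 0.239 in B140P, 33.5 in B117H and 0.574 in B140H. Nras had a log2 ratio of 0.91, not past 2-fold. Of 46 genes known as insertion targets in mouse leukaemia 37 passed, with 3 higher, 9 lower and a median of -0.53. The higher ones were Meis1, Flt3 and Hoxa7. Evl was at 18.1 FPKM in B117P and 0.473 in B140P, and it overlaps Degs2.

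Trp53, the gene of the p53 tumour suppressor, was lower in B140P, and several of its targets were higher. Trp53 was at 122 FPKM in B117P, 53.6 in B140P, 126 in B117H and 48.2 in B140H, and its 24 nearest compared genes had a median log2 ratio of -0.95 beside -1.17 for Trp53. Cdkn2a, which encodes p16 and ARF, was at 206 FPKM in B117P, 63.4 in B140P, 193 in B117H and 121 in B140H. Cdkn1a, the p21 inhibitor of cyclin-dependent kinases, was at 23.6 FPKM in B117P, 117.01 in B140P, 10.1 in B117H and 187 in B140H. Mdm2, the ubiquitin ligase of p53, was at 23.01 FPKM in B117P, 48.2 in B140P, 19.4 in B117H and 59.04 in B140H. Cdkn1a and Mdm2 were higher in both B140 libraries than in both B117 libraries. Ccng1, cyclin G1, was at 8.18 FPKM in B117P and 31.8 in B140P, Psrc1 at 1.996 FPKM in B117P and 12.7 in B140P and Zmat3, an RNA-binding target of p53, at 0.0625 FPKM in B117P and 18.1 in B140P, although Zmat3 overlaps another listed gene. The list had 8 higher, 4 lower and 16 not past 2-fold of 28 that passed of 37 listed, with a median of 0.33. Its lower genes were Trp53, Cdkn2a, Ak1 and Gadd45a.

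The BCL2 family had 4 higher and 4 lower of 31 that passed of 40 listed, with a median of 0.029. Over all genes compared 5.76% were higher and 10.8% lower. The anti-apoptotic gene Bcl2 was at 50.3 FPKM in B117P, 8.68 in B140P, 50.1 in B117H and 21.7 in B140H, while Mcl1, another survival gene, was at 40.1 FPKM in B117P, 92.9 in B140P, 38.6 in B117H and 47.7 in B140H. Pro-apoptotic Bbc3, which encodes PUMA, was at 2.40 FPKM in B117P, 10.9 in B140P, 2.50 in B117H and 11.003 in B140H, and Bax at 67.5 FPKM in B117P, 140.3 in B140P, 69.2 in B117H and 199 in B140H. Bcl2l14 was at 5.39 FPKM in B117P and 0.0241 in B140P. B140P thus had less Bcl2 and more Mcl1, Bbc3 and Bax than B117P.

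Few proliferation and chromatin genes were past 2-fold, where 16.6% of all genes compared were. Of G1 cyclins, CDK inhibitors and E2F factors 2 were higher and 1 lower of 29 that passed of 31 listed, with a median of -0.051. Tfdp2, a partner of E2F, was at 3.44 FPKM in B117P and 12.2 in B140P, and Rb1, the retinoblastoma gene, which overlaps Lpar6, at 5.78 FPKM in B117P and 12.3 in B140P, not past 2-fold. Of 26 MYC network genes 23 passed and 1 was lower, Mxd1, at 5.72 FPKM in B117P and 2.26 in B140P, with a median of -0.020. Of 49 DNA replication genes all passed and 1 was higher, Rfc3, a subunit of the clamp loader, at 28.7 FPKM in B117P and 71.3 in B140P, with a median of 0.025. Of 44 mitosis genes all passed, with 1 higher, Ccnb2, cyclin B2, at 39.9 FPKM in B117P and 93.4 in B140P, and 1 lower, Pttg1, securin, at 74.8 FPKM in B117P and 26.5 in B140P, and a median of -0.12. Of 53 DNA methylation, Polycomb and MLL leukaemia genes 47 passed and 3 were lower, with a median of 0.14. These were Cbx7, a Polycomb reader, at 3.41 FPKM in B117P and 0.0730 in B140P, Idh1, an isocitrate dehydrogenase, at 79.5 FPKM in B117P and 21.9 in B140P, and Tet2, which oxidises methylcytosine, at 10.9 FPKM in B117P and 3.09 in B140P.

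DNA repair and checkpoint genes had 7 higher and 0 lower of 59 that passed of 61 listed, with a median of 0.21. Over all genes compared 5.76% were higher and 10.8% lower. Xrcc5, the Ku80 subunit of end joining, was at 0.717 FPKM in B117P, 13.2 in B140P, 3.53 in B117H and 2.50 in B140H. Brca2, of homologous recombination, was at 3.21 FPKM in B117P, 12.4 in B140P, 3.62 in B117H and 16.3 in B140H. Pms2, a mismatch repair gene, was at 7.17 FPKM in B117P, 24.7 in B140P, 7.87 in B117H and 33.8 in B140H. Several of these genes lay among neighbours that were also higher in B140P: the median log2 ratio of the 24 nearest compared genes was 1.25 for Brca2, 1.03 for Pms2 and 0.99 for Msh6, which itself was at 1.14 and overlaps Fbxo11. The kinases Atm and Atr had log2 ratios of 1.21 and 1.18 with neighbours at 0.61 and 0.45, and Atr overlaps another listed gene. For Xrcc5 and for Chek2, a checkpoint kinase at 1.19, the neighbours were at -0.22 and -0.048. The part of the neighbourhood in these differences was not tested.

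Most genes of Ara-C uptake and metabolism were not past 2-fold between the sensitive lines. That held for most genes of any kind, since 16.6% of all genes compared were past 2-fold. Dck, deoxycytidine kinase, was at 20.1 FPKM in B117P and 17.8 in B140P, a log2 ratio of -0.17. Slc29a1, the nucleoside transporter, was at 50.3 FPKM in B117P and 64.9 in B140P, and Samhd1, which hydrolyses the active triphosphate, at 21.3 FPKM in B117P and 27.1 in B140P. Cda, cytidine deaminase, was listed at 0 in all 4 libraries. The first 3 of these were not past 2-fold and Cda did not pass the filter, beside labelled IC50 values of about 150 and 110 ng/ml. Of 25 salvage kinases and transporters 21 passed the filter, with 0 higher, 3 lower and a median of -0.093. Over all genes compared 5.76% were higher and 10.8% lower. Nme4, a mitochondrial nucleoside diphosphate kinase, was listed at 0 in both B140 libraries, against 7.12 FPKM in B117P and 6.54 in B117H. Cmpk2, a mitochondrial kinase that is also induced by interferon, was at 6.38 FPKM in B117P, 1.60 in B140P, 6.94 in B117H and 1.70 in B140H, and Nme7 at 17.8 FPKM in B117P and 6.09 in B140P, although Nme7 overlaps Atp1b1.

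Nucleotidases, deaminases and efflux pumps had 0 higher and 4 lower of 16 that passed of 27 listed, with a median of -0.13. Over all genes compared 5.76% were higher and 10.8% lower. Nt5e, the surface nucleotidase CD73, was at 26.4 FPKM in B117P, 0.0292 in B140P, 9.58 in B117H and 0.0114 in B140H. Nt5c2, the cytosolic nucleotidase, was at 40.1 FPKM in B117P and 13.3 in B140P, but overlaps Ina. Abcc4, an efflux pump for nucleotide analogues, was at 41.4 FPKM in B117P, 16.01 in B140P, 22.9 in B117H and 8.55 in B140H. Nt5c3l, a further nucleotidase, was at 4.42 FPKM in B117P and listed at 0 in B140P, and overlaps Fkbp10. All 4 of these genes had their lower level in B140P. Of 31 deoxynucleotide synthesis genes all passed, with 2 higher, 4 lower and a median of 0.10. Impdh1, the first enzyme of guanine nucleotide synthesis, was at 16.3 FPKM in B117P, 58.96 in B140P, 19.4 in B117H and 70.5 in B140H.

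Genes of the amino acid response driven by ATF4 were lower in B140P more often than higher. Of 48 genes of this response and the unfolded protein response 45 passed, with 3 higher, 16 lower and 26 not past 2-fold, and a median of -0.50. Asns, asparagine synthetase, was at 25.9 FPKM in B117P, 0.0562 in B140P, 20.9 in B117H and 0 in B140H. Psat1, of serine synthesis, was at 149 FPKM in B117P, 31.9 in B140P, 90.6 in B117H and 17.8 in B140H. Atf4 itself was at 182 FPKM in B117P and 75.2 in B140P. Nupr1, a stress-induced chromatin protein, Cth, of cysteine synthesis, and Chac1, which degrades glutathione, were at 11.41, 3.95 and 3.75 FPKM in B117P and listed at 0 in B140P. Trib3, a pseudokinase induced by ATF4, was at 5.36 FPKM in B117P and 0.236 in B140P. The other serine synthesis genes were not past 2-fold, with Phgdh at 256 FPKM in B117P and 296 in B140P and Psph at 15.6 FPKM in B117P and 10.99 in B140P, and Hspa5, the chaperone BiP of the unfolded protein response, had a log2 ratio of -0.27.

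The promoters of Nupr1 and Chac1 are shown because both genes were listed at 0 in B140P and both hold TGATGCAA, a form of the composite site that ATF4 binds with C/EBP factors. The 250 bases before each start are from RefSeq on GRCm38.p6, 5′ to 3′, with matches on either strand in capitals. Nupr1 lies at chr7:126625471-126625720 on the minus strand and Chac1 at chr2:119350992-119351241 on the plus strand, with 1 match each.
Nupr1: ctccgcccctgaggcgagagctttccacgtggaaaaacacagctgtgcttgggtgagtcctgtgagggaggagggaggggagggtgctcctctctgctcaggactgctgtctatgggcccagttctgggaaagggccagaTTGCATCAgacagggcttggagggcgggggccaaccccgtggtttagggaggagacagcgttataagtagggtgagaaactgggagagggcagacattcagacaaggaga
Chac1: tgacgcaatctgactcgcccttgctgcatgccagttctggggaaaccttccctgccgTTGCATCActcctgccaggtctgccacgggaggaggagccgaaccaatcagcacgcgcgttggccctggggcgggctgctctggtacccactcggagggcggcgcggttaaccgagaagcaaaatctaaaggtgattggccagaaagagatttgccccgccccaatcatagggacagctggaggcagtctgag
TGATGCAA on either strand was in 6 of the 38 genes of this list that had a promoter in the table, counted over 300 bases, and in 0.895% of all 32851 promoters. Here too the count is of genes with the letters in any promoter and the percentage is of single promoters. The 6 genes were Atf3, Chac1, Herpud1, Nupr1, Pycr1 and Slc1a4. All but Pycr1, with a log2 ratio of -0.83, were 2-fold or more lower in B140P, beside 16 of the 45 compared genes of the list. Atf3 was at 1.18 between the resistant lines, the opposite direction. The motif was chosen after its counts were seen, and its part in these differences was not tested. None of the azurophil granule, monocyte, B lymphoid and interferon-stimulated genes with a promoter held it.

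Immediate early genes had 3 higher and 10 lower of 32 that passed of 42 listed, with a median of -0.28. Over all genes compared 5.76% were higher and 10.8% lower. Gadd45b was at 8.88 FPKM in B117P and 0.356 in B140P, Fosl2, an AP-1 subunit, at 12.5 FPKM in B117P and 1.71 in B140P, Ier3 at 8.20 FPKM in B117P and 1.58 in B140P and Klf2 at 10.1 FPKM in B117P and 2.58 in B140P. Fos and Jun had log2 ratios of 0.34 and -0.95, not past 2-fold. Glycolysis and hypoxia genes had 2 higher and 7 lower of 38 that passed of 45 listed, with a median of -0.042. Hk3, the hexokinase of myeloid cells, was at 116 FPKM in B117P and 0.332 in B140P and overlaps Unc5a. Egln3, an oxygen sensor, was at 68.2 FPKM in B117P, 4.24 in B140P, 67.01 in B117H and 1.01 in B140H, and Ndrg1 at 45.1 FPKM in B117P and 12.7 in B140P. Hk1, the common hexokinase, was higher in B140P, at 27.4 FPKM in B117P and 64.6 in B140P.

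Sterol and fatty acid synthesis genes were more often lower in B140P, with 1 higher and 9 lower of 38 that passed of 46 listed, a median of -0.59 and one of -0.74 between the resistant lines. Lss, lanosterol synthase, was at 18.3 FPKM in B117P, 0.0170 in B140P, 14.6 in B117H and 0.0132 in B140H. Soat1, which esterifies cholesterol, was at 30.9 FPKM in B117P, 1.49 in B140P, 21.2 in B117H and 1.01 in B140H, and Elovl6, a fatty acid elongase, at 21.5 FPKM in B117P and 2.43 in B140P. Scd2, a desaturase, was at 719.6 FPKM in B117P, 177 in B140P, 187 in B117H and 181 in B140H, so B117P alone was high, and the neighbours of Scd2 had a median of -1.46 between the parents. Detoxification genes had 3 higher and 7 lower of 39 that passed of 61 listed, with a median of -0.24. Over all genes compared 5.76% were higher and 10.8% lower. Gstm1, a glutathione transferase, was at 39.9 FPKM in B117P and 0.0434 in B140P, Mgst2 at 30.1 FPKM in B117P and 0.222 in B140P and Prdx4, a peroxiredoxin, at 18.8 FPKM in B117P and 0.0600 in B140P. Glul, glutamine synthetase, was at 0.0328 FPKM in B117P, 17.5 in B140P, 15.6 in B117H and 23.8 in B140H, so B117P alone was low.

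Genes of the respiratory chain and the ribosome mostly differed little. Of 76 oxidative phosphorylation genes 74 passed, with 1 higher, 5 lower and a median of 0.089. Cox6a2 and Cox7a1, the muscle forms of cytochrome oxidase subunits, were at 31.4 and 15.9 FPKM in B117P and 0.577 and 1.97 FPKM in B140P, and Cox6a2 overlaps Itgad. Of 66 cytosolic ribosomal protein genes 64 passed, with 3 higher, 1 lower and a median of 0.33. Rps27, at 5.67 FPKM in B117P and 154 in B140P, and Rpl30, at 182 FPKM in B117P and 63.2 in B140P, each overlap another listed gene, and reads of ribosomal protein genes can be shared with pseudogenes. The paralogs Rpl22l1 and Rps27l were at 32.2 FPKM in B117P and 114 in B140P and at 254 FPKM in B117P and 647 in B140P.

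Linker and core histone genes had 1 higher and 8 lower of 31 that passed of 59 listed, with a median of -0.80. The linker genes H1f0 and H1fx, which lie outside the histone clusters and were put in this list all the same, were listed at 0 in B140P, with H1fx at 23.5 FPKM in B117P, 36.2 FPKM in B117H and 0 in B140H. Among the clustered genes Hist1h2bc was at 26.8 FPKM in B117P and 9.09 in B140P. Imprinted genes had 0 higher and 0 lower of 12 that passed of 45 listed, with a median of 0.15 and the largest ratio in Inpp5f, at 0.50. Housekeeping genes all passed, with 1 lower of 27, Polr2a, the large subunit of RNA polymerase II, at 66.8 FPKM in B117P and 25.6 in B140P, and a median of -0.060. Its 24 nearest compared genes had a median of -0.97.

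Both parental lines expressed genes of the Y chromosome. Ddx3y, a helicase, was at 7.47 FPKM in B117P, 21.4 in B140P, 0.0432 in B117H and 19.2 in B140H, and Uty, a demethylase relative, at 1.99 FPKM in B117P, 4.54 in B140P, 0 in B117H and 3.59 in B140H. B117H was near 0 for both, unlike its parent. Kdm5d and Eif2s3y were listed at 0 in all 4 libraries, and Xist, the RNA of the inactive X, was at 0.0635 FPKM in B117P and 0.0198 in B140P. Of 14 sex-linked genes 6 passed, with 1 higher, 0 lower and a median of 0.30.

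**Figure D3:**
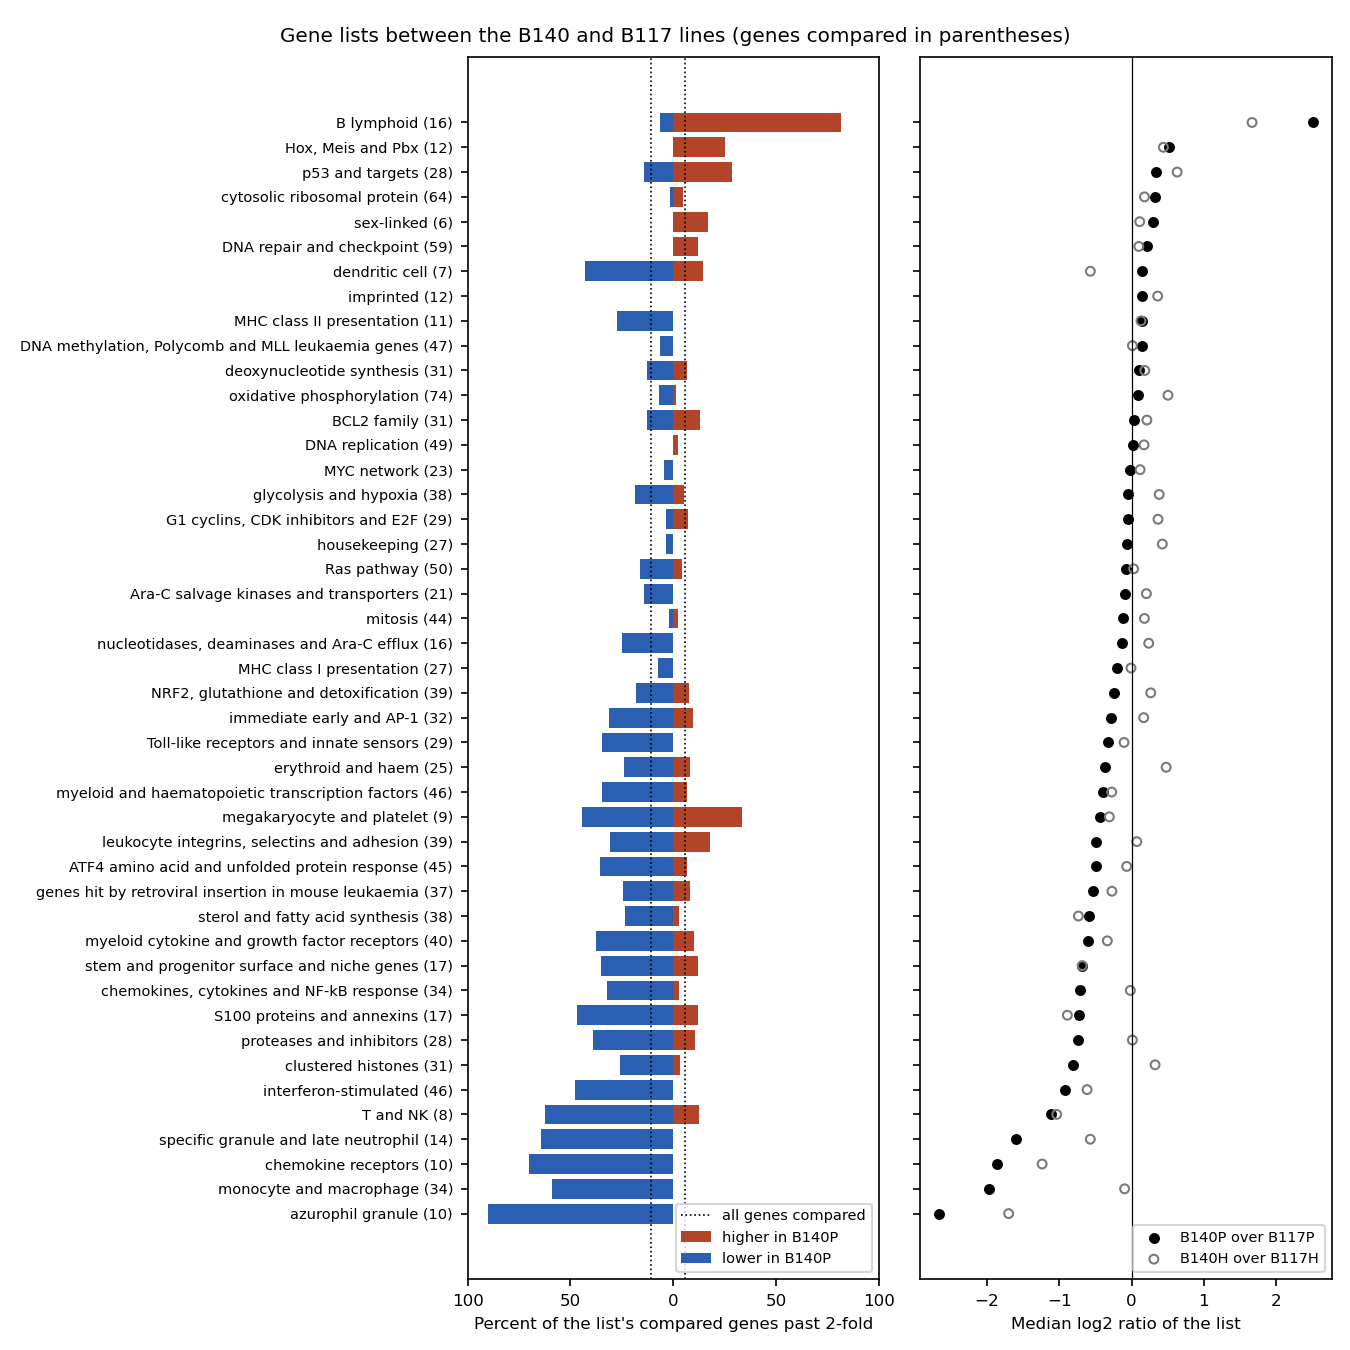
Each line is 1 gene list with at least 5 genes compared. The left panel gives the percent of its genes past 2-fold, with dotted lines at 5.76% higher and 10.8% lower for all genes, and the right panel the median log2 ratio between the parental lines (filled) and the resistant lines (open). B lymphoid genes stand at one end, with a median of 2.51, and azurophil granule, monocyte and chemokine receptor genes at the other. Each median covers only the genes that passed the filter.

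Differences also followed position along the chromosomes. Chromosome 14 had 21.2% of its 344 compared genes higher in B140P and a median log2 ratio of 0.27. Chromosome 9 had the highest median, 0.41, with 74.6% of its genes above 0. Chromosomes 4, 16 and 1 had the lowest medians, -0.45, -0.41 and -0.39, and 14.1%, 19.3% and 19.8% of their genes were above 0. These 3 medians were shifts of most genes of a chromosome, not of a few large differences. Between the resistant lines the medians of chromosomes 1 and 4 were -0.34 and -0.27, while that of chromosome 16 was 0.26, beside 0.147 over all genes. Those of chromosomes 14 and 9 were 0.093 and 0.22 there, so the median of chromosome 14 was no longer above that of all genes. Between B140H and B140P the medians of chromosomes 14 and 9 were -0.24 and -0.21. The genes of chromosome 16 had a median of -0.47 between B117H and B117P, and of 0.16 between B140H and B140P.

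**Figure D4:**
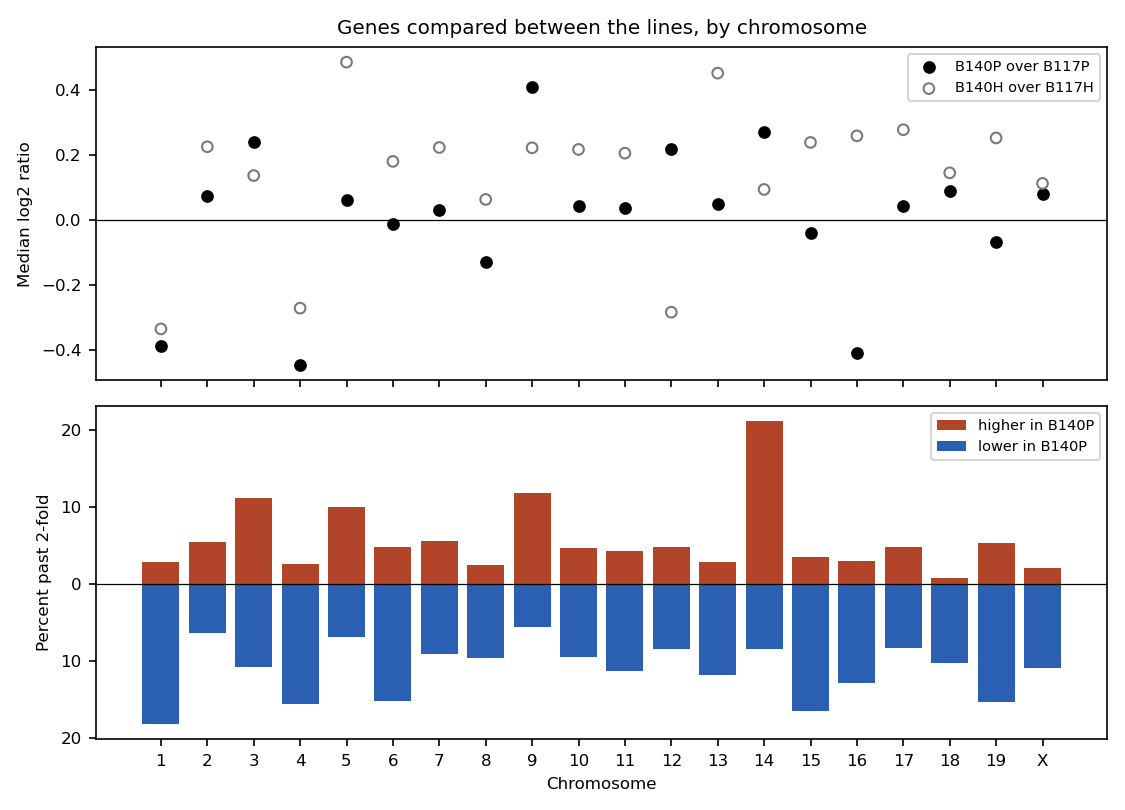
The upper panel gives the median log2 ratio of the compared genes of each chromosome between the parental lines (filled) and the resistant lines (open), and the lower panel the percent of genes past 2-fold between the parental lines. Chromosome 14 has the largest share higher in B140P, 21.2%, and chromosomes 1, 4 and 16 have the lowest medians between the parents.

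Over 9505 windows of 25 neighbouring compared genes, which overlap and are not independent, the middle 90% of medians lay between -0.56 and 0.56. The highest was on chromosome 5, chr5:145005306-148234620 on mm9, from Bri3 to D5Ertd605e. Its median was 1.60, with 23 of 25 genes higher in B140P, and 1.94 between the resistant lines. It holds Flt3, and besides it Polr1d, an RNA polymerase subunit, at 147 FPKM in B117P and 555 in B140P, and Cdk8, a Mediator kinase, at 24.4 FPKM in B117P and 83.8 in B140P. Most of the window thus was higher together with Flt3.

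Among windows that share no gene with it or with each other, the next highest were a pair on chromosome 14. The first, chr14:62217063-68333898 from Dleu2 to Cdca2, had a median of 1.54 with 20 genes higher and 1 lower. It holds Ppp2r2a, a phosphatase subunit, at 11.7 FPKM in B117P and 51.02 in B140P, and Esco2, a cohesin acetyltransferase, at 4.90 FPKM in B117P and 19.99 in B140P. The second, chr14:70009283-73995949 from Loxl2 to Sucla2, had a median of 1.497 with 18 higher and 1 lower. It holds Dok2, Rb1 and Gfra2, a receptor for neurturin, at 0.0261 FPKM in B117P and 16.3 in B140P. Its 1 lower gene was Bin3, at 272 FPKM in B117P, 31.8 in B140P, 218 in B117H and 24.5 in B140H, which overlaps another listed gene. Between the resistant lines these windows had medians of 1.02 and 1.18, the same direction.

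Some windows that were lower in B140P were not so between the resistant lines. On chromosome 15, chr15:10498733-34214050 from Rai14 to Laptm4b, the median was -1.51 with 20 of 25 genes lower, against 0.08 between the resistant lines and -1.43 between B117H and B117P. Dap was there at 221 FPKM in B117P, 38.8 in B140P, 51.4 in B117H and 65.4 in B140H. On chromosome 19, chr19:42593295-45734683 from D19Ertd386e to Dpcd, the median was -1.47 with 19 genes lower, against 0.25 between the resistant lines and -1.44 between B117H and B117P. It holds Scd2 and Ndufb8, of respiratory complex I, at 804 FPKM in B117P, 231 in B140P, 241 in B117H and 309 in B140H. For Dap, Scd2 and Ndufb8 the B117P level was above that of the other 3 libraries. A window on chromosome 3, chr3:132754917-142544968 from Ints12 to Pkn2, had a median of -0.90 between the parents, 0.10 between the resistant lines and 0.91 between B140H and B140P, and holds Gbp3, Tet2 and Nfkb1.

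The windows described on chromosome 11 had the same direction in both pairs. From Eif5a to Kif1c, chr11:69730214-70545472, the median was -1.22 with 19 genes lower, and -0.77 between the resistant lines. It holds Acadvl, of fatty acid oxidation, at 17.9 FPKM in B117P, 0.0249 in B140P, 14.4 in B117H and 0.0974 in B140H. The window before it, chr11:68799203-69653060 from Pfas to 1810027O10Rik, had a median of -0.95 with 10 genes lower, and -0.37 between the resistant lines. It holds Trp53 and Polr2a. The other high windows described were on chromosomes 17 and 3. The first, chr17:84230694-95149232 around Msh6, had a median of 0.96 and one of 1.20 between the resistant lines. The second, chr3:95688896-96709221, had a median of 1.04 but 0.28 between the resistant lines, with -0.56 between B140H and B140P.

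The resistant lines gave libraries of the same lineages that the comparison of the parents did not use. They descend from the parents, so they are further samplings of each lineage and not independent leukaemias. Between them 927 genes (9.28%) were higher in B140H and 889 (8.9%) lower, with a median log2 ratio of 0.147 against -0.0015 between the parents. Of the 575 genes higher in B140P, 359 were also 2-fold higher in B140H, which is 62.4% of the parental genes and 38.7% of the resistant ones. Of the 1079 lower genes 670 were also 2-fold lower in B140H, 62.1% of the parental and 75.4% of the resistant genes. The direction was the same for 546 of the higher and 978 of the lower genes, and it was opposite by 2-fold for 4 and 17.

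The largest differences were most often still past 2-fold between the resistant lines. The bar of 2-fold was the same for all genes, so a larger difference could shrink further and still count. That order is thus partly fixed by the rule. Of 39 genes over 16-fold higher in B140P, 36 were past 2-fold in B140H, and of 81 over 16-fold lower, 80 were. The 3 exceptions among the higher ones were Spint2, Glul and the unnamed clone E130012A19Rik. Both B140 libraries lay above both B117 libraries for 541 of the 575 higher genes, beside 35.6% of all compared genes, and below them for 969 of the 1079 lower genes, beside 26.6%. Those shares are partly fixed by the choice of genes, since the parental values that chose them are 2 of the 4 libraries. Median ratios went from 1.52 to 1.27 for the higher and from -1.76 to -1.38 for the lower genes.

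**Figure D5:**
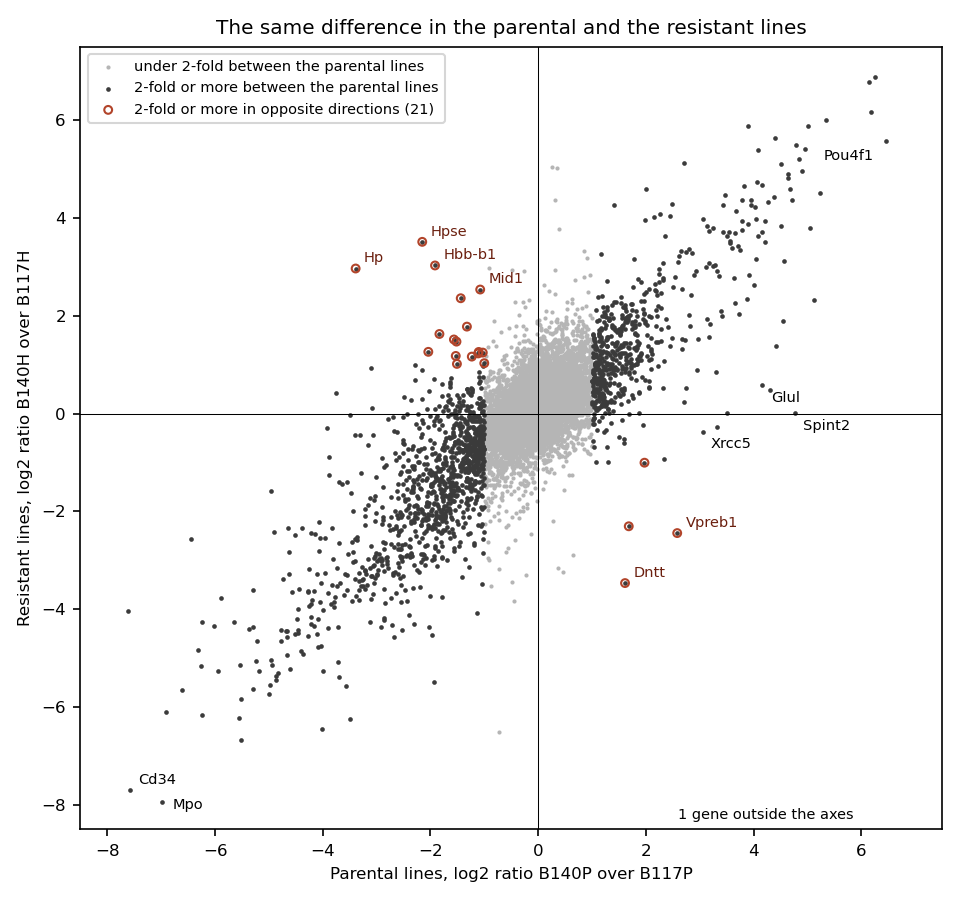
Each point is a compared gene, with the log2 ratio of B140P over B117P on the x axis and of B140H over B117H on the y axis. Most genes past 2-fold between the parents (dark) lie in the quadrants of the same direction, circles mark the 21 genes past 2-fold in opposite directions, and 1 gene lies outside the axes.

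At the threshold the calls are a matter of small differences. Mospd1, with a log2 ratio of 1.002, was counted as higher and Phyh, at 0.9986, was not. Lars2, at -1.0009, was counted as lower and Cenpf, at -0.9997, was just short of it. At the filter, Siglec5 passed at 1.91 FPKM in B117P and 0.0871 in B140P, and Slc24a5, at 0.859 and 1.14 FPKM, did not.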

How the data were processed

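RNA-seq of total RNA from 4 mouse leukaemia cell lines gave 1 library per line. The deposited files list each gene's name, its span on mm9 and an FPKM, and the authors' tools, per the submitters' processing notes, were TopHat2 2.0.4 and Cuffdiff. No counts, intervals or p-values are in the files. Genes were joined by name across files, small RNA genes (Mir, Snora, Snord, Scarna and Rnu names) were left out, and genes whose FPKM averaged at least 1 over the parental libraries were compared as log2 of FPKM + 1, with a fold rule of 2 and no test. FPKM compares levels between genes per transcript length. Listed starts count from 0, and 1 was added.

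The members and the 47 gene lists were chosen with earlier results of these data known. Named genes are the 15 largest ratios each way, unnamed clones left out, up to 4 of each list and up to 5 of each window by size, and Dck, Slc29a1, Cda and Samhd1. Other members named for their role were chosen after their values were seen. Some genes that this rule names are not reported here. Windows were runs of 25 compared genes in genome order, and a gene's neighbours are the other 24 genes of the run centred on it.

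Promoters came from a RefSeq table on GRCm38.p6, matched by symbol, over 250 bases before to 50 after the start. They were searched on both strands for the ETS-type letters AGGAAG, their longer form GAGGAAGT and the related GGAAGTG, for the E-box CAGGTG, for the composite site TGATGCAA of ATF4 and the HOX-PBX site TGATTGAT, for C/EBP sites of growing strictness (TTNNGCAA, then TTNNGCAAT, then TTGCGCAA), for MYB sites (AACNGTT or CAACGG or CAGTTG), for the RUNX site TGTGGT and its variant AACCACA, for AP-1 (TGACTCA), for CRE (TGACGTCA), for the octamer ATTTGCAT, for the EBF1 palindrome and its core CCCNNGGG, and for the interferon response element. Several of these overlap, since GAGGAAGT contains AGGAAG and TTNNGCAAT contains TTNNGCAA. A gene of a list counted if any of its promoters had a match, while shares of all promoters were over single promoters. The 3 motifs shown were chosen after their counts were seen.

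Alternatives changed the pseudocount, the filter, the fold rule, the scaling, the genes listed at 0 and the overlapping genes, or used the resistant lines. The scripts were tested on simulated data and ran in Python 3.11.15 with numpy 2.4.6, pandas 2.3.3 and matplotlib 3.10.9.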

Additional observations from a re-analysis of the deposited data

Results flagged for a closer look

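In 21 genes the parental and the resistant pair differed by 2-fold or more in opposite directions, and whether the pairs differ was not tested. In 12 of the 21 the change from B117P to B117H was the larger of the 2 changes within a lineage. Each gene is given with its log2 ratio of B140H over B117H after that of B140P over B117P.

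The genes higher in B140P and lower in B140H were Dntt (1.61, then -3.47), Vpreb1 (2.58, then -2.44), Ppfibp1 (1.68, then -2.31) and Camk1d (1.97, then -1.004). The first 2 are B cell progenitor genes, and Dntt was at 44.2 FPKM in B117P and 222 FPKM in B117H. Ppfibp1 overlaps another listed gene.

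Of the genes lower in B140P and higher in B140H, Hp went from -3.39 to 2.97, Hpse, heparanase, from -2.15 to 3.51, Trem3, a myeloid receptor, from -2.04 to 1.26, Ccl3, an inflammatory chemokine, from -1.56 to 1.52, Ifi30, a lysosomal reductase, from -1.23 to 1.17, and Atf3, a stress factor, from -1.53 to 1.18. Cd28 went from -1.32 to 1.78, Mid1 from -1.08 to 2.54, Ttc39c from -1.44 to 2.36, Atp6ap1l from -1.83 to 1.63, Rasgef1b from -1.52 to 1.47 and Hist1h4f from -1.10 to 1.26. Mid1 overlaps other listed genes. Fam173b, Rabl5 and Lars2 reached 1.25, 1.23 and 1.03 between the resistant lines, from -1.03, -1.11 and -1.001. Hbb-b1 had -1.92 and 3.03 on this log2(FPKM + 1) scale, but it was listed at 0 in B117H, so the second value is no fold, and it overlaps Hbb-b2. Rpl30, at -1.51 and 1.02, overlaps another listed gene, so its values are uncertain.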

How the results depend on the processing

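Every value rests on 1 library per line, so small differences cannot be told from library or preparation. No paired analysis was possible because the parental comparison has 1 library a side and the labels give no replicate numbers, so the resistant pair, which descends from the parents, stands beside it as values. Leaving out a replicate was not possible for the same reason. Against 575 genes higher and 1079 lower, a pseudocount of 0.1 gave 731 and 1282, no filter 604 and 1191, a minimum mean of 5 FPKM 424 and 604, the 4-fold rule 158 and 421, centring 576 and 1078, TPM without small RNA genes 623 and 1237, genes listed at 0 left out 541 and 924, and overlapping genes left out 487 and 967. Subtracting the median of 24 neighbours, chosen after seeing the data, gave 432 and 938. The resistant lines gave 927 and 889, so 51.0% of their calls were higher, against 34.8% between the parents.

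Of 47 list medians, each moved by less than 1.5-fold (a median near 0 can still change sign) under TPM, centring, zeros left out, overlaps left out and neighbours subtracted, and all 46 that had a value did with the minimum of 5, where the stromal list had none. With no filter the medians were -0.0805 for specific granule, -0.37 for monocyte, 0.70 for B lymphoid, 0 for T and NK, 0 for mast cell, -0.0944 for chemokine receptor, -0.0763 for S100, -0.0335 for protease and -0.00278 for stromal genes, since genes near 0 in both lines then enter. With a pseudocount of 0.1 they were 3.98 for B lymphoid, -2.07 for mast cell and 2.83 for stromal genes, and with a mean over 4 libraries the stromal value was -1.42. The mast cell and stromal lists hold 2 genes and 1 gene.

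Between the resistant lines the medians were -1.70 for azurophil granule, -0.57 for specific granule, -0.0964 for monocyte, -0.57 for dendritic cell, 1.67 for B lymphoid, 0.48 for erythroid, -1.66 for mast cell, 0.34 for stromal, -0.0165 for chemokine and NF-kB, -1.24 for chemokine receptor, 0.0113 for protease and 0.33 for histone genes, and 0.26 for chromosome 16. Named genes changed sign there to 1.18 for Atf3, 1.63 for Atp6ap1l, -1.004 for Camk1d, 1.52 for Ccl3, 0.41 for Ccl4, 1.78 for Cd28, 0.34 for Dap, -3.47 for Dntt, 0.0467 for Dpcd, 1.25 for Fam173b, 3.03 for Hbb-b1, 0.33 for Hist1h2bc, 1.26 for Hist1h4f, 2.97 for Hp, 3.51 for Hpse, 0.15 for Ier3, 1.17 for Ifi30, 1.03 for Lars2, 2.54 for Mid1, 0.12 for Mmp8, 0.0321 for Mxd1, 0.36 for Ndufb8, 0.0851 for Pkn2, -2.31 for Ppfibp1, 1.23 for Rabl5, 1.47 for Rasgef1b, 1.02 for Rpl30, 0.94 for Spp1, 1.26 for Trem3, 2.36 for Ttc39c, -2.44 for Vpreb1 and -0.37 for Xrcc5. Fam173b became 0.29 with neighbours subtracted. Without a change of sign, 41 of the genes checked fell short of 2-fold with neighbours subtracted, and 4 came past it. Between the resistant lines 43 fell short of 2-fold in the same way and 6 came past it. Under the 4-fold rule 96 of the genes past 2-fold fell short. For each of these values the cause was not tested.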
